A study of Gallus gallus with 6 samples.

Results

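The genes BLNK, SYK, LYN and TNFRSF13C encode an adaptor, a pair of kinases and a survival receptor through which B-cells read their antigen receptor and the cytokine BAFF. They were found by symbol in the table of called genes, where each symbol belongs to 1 identifier (ENSGALG00000006973 for BLNK, ENSGALG00000015216 for SYK, ENSGALG00000018967 for LYN and ENSGALG00000019322 for TNFRSF13C), and are 4 of the 19219 genes counted. Only genes the authors had called different between the stages carry a symbol there. A member had therefore been called before it was chosen, and its tests below describe the size and direction of a change and do not count as independent support for it. Expression was measured in lymphocytes from the bursa of Fabricius of untreated Hy-Line W-36 commercial layer embryos at ED16 (libraries ED16_1, ED16_2 and ED16_3) and at ED19 (ED19_4, ED19_5 and ED19_6). By the sample labels each library came from its own pool of 52 to 55 bursas, while the methods name only the upper of these numbers. The bursas were made into a cell suspension and purified on a density gradient. The cells are labelled B-lymphocytes, but the study's methods state no sorting of B-cells after the gradient, so other gradient-purified cells could be present. Transcripts that mark other cell types were counted in these libraries, and 49 of the 51 such markers tested were higher at ED16 (below).

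The bursa of Fabricius is the organ in which chicken B-cells develop and diversify their immunoglobulin genes. When the B-cell receptor is engaged, the Src-family kinase LYN phosphorylates the tails of its signaling chains and SYK binds there. SYK then phosphorylates the adaptor BLNK, which brings the phospholipase PLCG2 to the Tec-family kinases and so starts the calcium and NF-kB branches. TNFRSF13C is the BAFF receptor, which sustains mature B-cells in mammals by removing TRAF3 and releasing the non-canonical NF-kB subunit NFKB2. Each of LYN, SYK and BLNK has been deleted in DT40, a B-cell line from a chicken bursal lymphoma, to study how this receptor signals.

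All 4 genes were higher at ED19 than at ED16, in every library of the later stage. Transcripts of SYK rose 3.96-fold, those of LYN 2.96-fold, those of BLNK 2.42-fold and those of TNFRSF13C 1.74-fold. Related genes with a symbol went both ways. BLK, LCK and YES1 beside LYN, ZAP70 beside SYK and TNFRSF13B beside TNFRSF13C were higher at ED16. TEC beside SYK and the adaptors PIK3AP1 and DAPP1 beside BLNK were higher at ED19, while the adaptors SHC1 and GAB1 were higher at ED16. Relatives without a symbol were not seen.

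The libraries held from 27087661 to 34614652 counted reads. Stages were compared gene by gene in edgeR (quasi-likelihood F test on TMM-normalized counts), with p-values adjusted by Benjamini-Hochberg over 13923 tested genes. Each log2 fold change is ED19 over ED16 and is followed by its standard error (SE). A gene was called at an adjusted p below 0.05, which 66.4% of the tested genes reached, 30.8% higher at ED19 and 35.6% higher at ED16. Among tested genes with a symbol 99.5% were called, 47.6% higher at ED19 and 51.8% higher at ED16. All 4 members were called higher at ED19 with no overlap between the stages, a pattern without overlap that 33.1% of all tested genes showed in that direction and 71.5% in either. That they were called is fixed by the source of the symbols, and nothing is read from it. Of the called genes 46.4% were higher at ED19, and 62.9% after a correction for gene length. Nothing in the labels says more of the replicates than that they are separate pools, so the p-values measure the spread between pools. In bulk RNA, fewer cells of a type and less RNA per cell cannot be told apart.

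Per length, LYN was the most abundant of the 4 at both stages. RPKM counts reads relative to gene length and to the counted reads of the library. It does not remove a trend with gene length that differs between the stages (below), and the levels here were not corrected for it. At ED16 the mean RPKM was 144 ± 23.7 (SD, n = 3) for LYN, 111 ± 11.5 for BLNK, 27.9 ± 0.505 for TNFRSF13C and 14.7 ± 1.46 for SYK. The LYN and BLNK libraries overlapped at ED16, although LYN was above BLNK within each of the 3 libraries. At ED19 the mean RPKM was 443 ± 71.8 (SD, n = 3) for LYN, 280 ± 41.4 for BLNK, 60.9 ± 15.0 for SYK and 50.6 ± 8.83 for TNFRSF13C. SYK and TNFRSF13C overlapped between libraries at ED19 but SYK was above TNFRSF13C within each of them, the reverse of their order at ED16. This reversal holds for uncorrected RPKM. With a correction for gene length the log2 fold changes of SYK and TNFRSF13C differed by only 0.13.

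**Figure D1:**
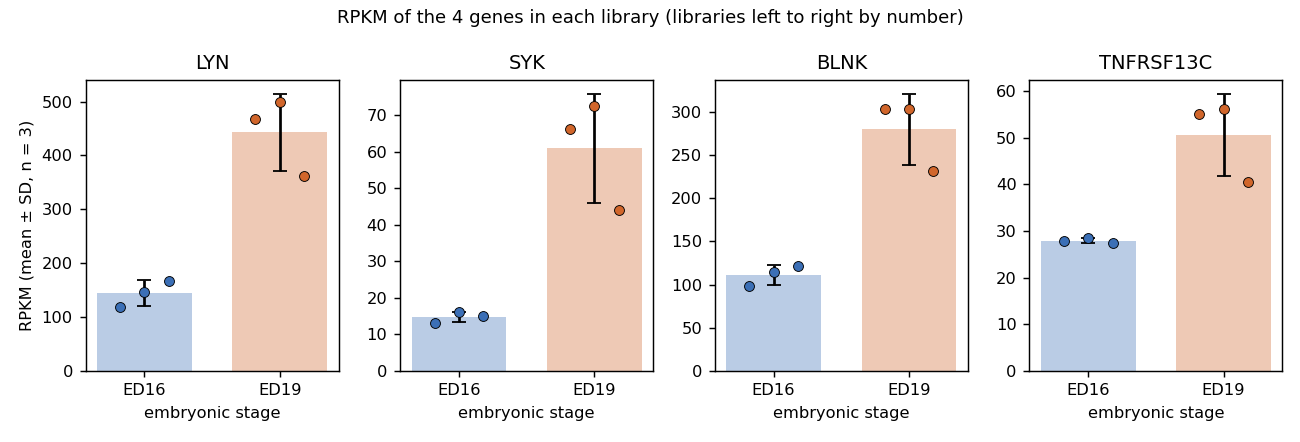
RPKM of LYN, SYK, BLNK and TNFRSF13C in the 3 ED16 and 3 ED19 libraries (points, in order of library number), with bars for the mean and error lines for the SD. For each gene all ED19 points lie above all ED16 points, and the last ED19 point, ED19_6, is the lowest of its stage.

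LYN, the Src-family kinase that acts at the receptor in both an activating and an inhibitory role, was counted 12302, 13117 and 15467 times in the ED16 libraries and 45916, 43083 and 29271 times in those of ED19. Its libraries measured 119, 146 and 166 RPKM at ED16 and 467, 499 and 362 RPKM at ED19. The stages did not overlap, and the lowest ED19 library was 2.18 times the highest ED16 library. The log2 fold change was 1.56 (SE 0.19, edgeR adjusted p = 0.00024), and 7.3% of all tested genes and 12.6% of those with a symbol had a larger one. LYN ranked 668 to 923 among all genes by RPKM at ED16 and 148 to 265 at ED19, where it took 0.108% to 0.149% of the counted reads of a library.

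Of the 4 Src-family kinases reported here, LYN was the only one higher at ED19. BLK, a kinase typical of B-cells in mammals, measured 23.9, 26.0 and 19.0 RPKM at ED16 and 15.4, 12.7 and 11.8 RPKM at ED19 (log2 fold change -0.84, SE 0.15, edgeR adjusted p = 0.0016). LCK, the Src-family kinase of T-cells, measured 13.1 ± 3.91 (SD, n = 3) RPKM at ED16 and 2.86 ± 0.463 RPKM at ED19 (log2 fold change -2.24, edgeR adjusted p = 0.00016). YES1, a widely expressed kinase, was at a mean RPKM of 0.872 at ED16 and 0.118 at ED19 (log2 fold change -2.90).

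LYN therefore made up a different share of these kinases at each stage. Of the summed RPKM of the 4 genes, LYN held 75.0%, 77.3% and 85.5% in the ED16 libraries and 96.2%, 96.9% and 96.2% in the ED19 libraries. The sum itself ran from 159 to 194 at ED16 and from 376 to 515 at ED19. BLK held 9.80% to 15.0% at ED16 and 2.47% to 3.18% at ED19. The ratio of LYN to BLK within a library ran from 4.99 to 8.73 at ED16 and from 30.2 to 39.2 at ED19. Other kinases of the family are not in these shares.

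SYK, the kinase that binds the phosphorylated receptor chains, was counted 2038, 2155 and 2114 times in the ED16 libraries and 9790, 9414 and 5348 times in those of ED19. Its libraries measured 13.1, 16.0 and 15.1 RPKM at ED16 and 66.1, 72.5 and 44.0 RPKM at ED19. The ED16 libraries lay close together, while ED19_6 stood 36.6% below the mean of the other ED19 libraries and was still 2.75 times the highest ED16 library. The log2 fold change was 1.99 (SE 0.17, edgeR adjusted p = 6.9e-05), and 3.10% of all tested genes and 5.12% of those with a symbol had a larger one. SYK stood at the 70.9th to 73.5th percentile of genes by RPKM at ED16 and at the 86.9th to 92.1st at ED19.

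ZAP70, the relative of SYK that serves the T-cell receptor, was counted 202, 235 and 84 times in the ED16 libraries and 14, 6 and 12 times in those of ED19. Its log2 fold change was -3.94 (SE 0.50, edgeR adjusted p = 0.00026), and the ratio of SYK to ZAP70 by RPKM ran from 4.89 to 13.4 at ED16 and from 238 to 836 at ED19. With so few ZAP70 counts at ED19 the upper ratios are imprecise. TEC, a Tec-family kinase, measured 12.6 ± 1.58 (SD, n = 3) RPKM at ED16 and 22.3 ± 7.63 RPKM at ED19 (log2 fold change 0.75, SE 0.21, edgeR adjusted p = 0.013). TEC missed the threshold when ED16_1 or ED16_3 was left out (edgeR adjusted p = 0.051 for each) and with upper-quartile normalization (edgeR adjusted p = 0.056), and its adjusted p over the alternatives otherwise ranged from 3.7e-05 to 0.046. BTK, the Tec-family kinase best known from B-cells, carried no symbol and was not analysed here.

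BLNK, the adaptor that links SYK to phospholipase and Tec kinases, was counted 7378, 7404 and 8161 times in the ED16 libraries and 21669, 19040 and 13620 times in those of ED19. Its libraries measured 98.3, 114 and 121 RPKM at ED16 and 303, 304 and 232 RPKM at ED19. The stages did not overlap, and ED19_4 and ED19_5 were nearly equal while ED19_6 was 23.6% below their mean. The log2 fold change was 1.28 (SE 0.16, edgeR adjusted p = 0.00023), and 11.9% of all tested genes and 21.0% of those with a symbol had a larger one. By RPKM, BLNK ranked 935 to 1129 among all genes at ED16 and 255 to 423 at ED19.

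Of the 17 adaptors listed, 6 had a symbol, and 4 of these were higher at ED19. These counts include BLNK, and without it 3 of 5 were higher at ED19. Of all tested genes with a symbol 47.6% were called higher at ED19, and this share stands beside each count by role below. PIK3AP1 (BCAP), which links the receptor to phosphoinositide 3-kinase, measured 82.9 ± 6.24 (SD, n = 3) RPKM at ED16 and 183 ± 31.4 RPKM at ED19 (log2 fold change 1.09, SE 0.14, edgeR adjusted p = 0.00033). DAPP1 (BAM32), an adaptor recruited to phosphoinositides in B-cells, measured 39.6 ± 0.489 RPKM at ED16 and 84.9 ± 4.47 RPKM at ED19 (log2 fold change 1.06, edgeR adjusted p = 0.00031). The ratios of BLNK to PIK3AP1 and of BLNK to DAPP1 overlapped between the stages, at 1.21 to 1.57 and 2.51 to 3.81 over the 6 libraries. SHC1, an adaptor of growth factor receptors in many cell types, measured 70.0 ± 7.90 RPKM at ED16 and 24.5 ± 0.741 RPKM at ED19 (log2 fold change -1.56, edgeR adjusted p = 7.4e-05), and GAB1 was also higher at ED16, at a mean RPKM of 0.413 there.

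PLCG2, the phospholipase that BLNK recruits, changed more than BLNK. Its libraries measured 12.7, 16.9 and 16.0 RPKM at ED16 and 102, 99.3 and 58.0 RPKM at ED19 (log2 fold change 2.44, SE 0.21, edgeR adjusted p = 6.1e-05). The ratio of BLNK to PLCG2 within a library ran from 6.72 to 7.75 at ED16 and from 2.96 to 4.0 at ED19, with no overlap. PLCG1, the isoform of T-cells and many other cells, was higher at ED16, with a mean RPKM of 4.06 at ED16 and 0.727 at ED19 (log2 fold change -2.52, edgeR adjusted p = 0.00011).

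**Figure D2:**
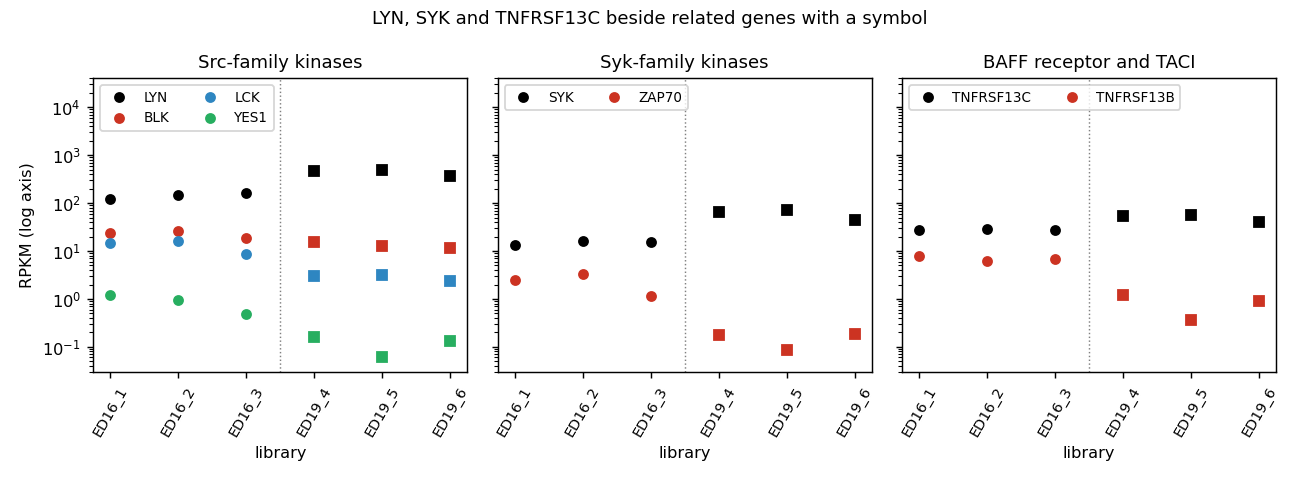
RPKM on a log axis in each library (circles ED16, squares ED19) for LYN with 3 Src-family kinases, for SYK with ZAP70 and for TNFRSF13C with TNFRSF13B. In each panel the black points of the member are higher at ED19 and the coloured points of its relatives are lower, and the distance between TNFRSF13C and TNFRSF13B is wider at ED19 in all 3 libraries.

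TNFRSF13C, the BAFF receptor, was counted 715, 637 and 638 times in the ED16 libraries and 1352, 1208 and 814 times in those of ED19, the fewest of the 4 genes. Its libraries measured 27.8, 28.5 and 27.5 RPKM at ED16 and 55.1, 56.2 and 40.4 RPKM at ED19. The ED16 libraries were nearly equal, and the lowest ED19 library was 1.42 times the highest of them. The log2 fold change was 0.80 (SE 0.15, edgeR adjusted p = 0.0015), the smallest of the 4, and under a minimum fold of 2 it would not be called. A larger log2 fold change was found in 24.1% of all tested genes and in 41.2% of those with a symbol. TNFRSF13C is also the shortest of the 4, with 744 bases by the authors' gene lengths, and with the correction for gene length its log2 fold change was 1.85 (edgeR adjusted p = 4.7e-05). Over 13 alternatives its adjusted p ranged from 2.2e-06 to 0.011.

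Of the 15 genes listed for BAFF ligands, receptors and the non-canonical NF-kB branch, 6 had a symbol, and 4 of these were higher at ED19. These counts include TNFRSF13C, and without it 3 of 5 were higher at ED19. TNFRSF13B (TACI), a receptor that binds BAFF and in mammals restrains B-cell numbers, was counted 336, 228 and 254 times in the ED16 libraries and 48, 13 and 29 times in those of ED19 (log2 fold change -3.13, SE 0.40, edgeR adjusted p = 0.00027). The ratio of TNFRSF13C to TNFRSF13B by RPKM ran from 3.46 to 4.55 at ED16 and from 45.7 to 151 at ED19. The ratio of 151 rests on 13 TNFRSF13B counts in ED19_5, so the size of the ED19 ratios is imprecise. TRAF3, which holds the non-canonical branch back until the BAFF receptor is engaged, measured 4.28, 4.53 and 6.60 RPKM at ED16 and 24.8, 23.8 and 6.88 RPKM at ED19. Its log2 fold change of 1.75 (SE 0.41, edgeR adjusted p = 0.0050) rested mostly on ED19_4 and ED19_5, since ED19_6 lay just above the highest ED16 library. BIRC2, a ubiquitin ligase of the same complex, measured 20.3 ± 1.59 (SD, n = 3) RPKM at ED16 and 36.6 ± 5.19 RPKM at ED19 (log2 fold change 0.80, edgeR adjusted p = 0.00082). NFKB2, the subunit this branch processes, was lower at ED19, with 87.7, 72.3 and 57.6 RPKM at ED16 and 28.0, 22.8 and 22.3 RPKM at ED19 (log2 fold change -1.62, SE 0.18, edgeR adjusted p = 0.00014). The BAFF gene (TNFSF13B), TNFRSF17, TRAF2, MAP3K14 and RELB carried no symbol and were not analysed here.

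By RPKM, without a correction for gene length, the measured changes of the 4 genes differed in size. A ratio of 2 genes within a library does not depend on how libraries are scaled, and all 6 ratios between the members shifted without overlap between the stages. The largest shift was that of SYK over TNFRSF13C, from 0.472, 0.560 and 0.549 at ED16 to 1.20, 1.29 and 1.09 at ED19. The smallest was that of LYN over BLNK, from 1.21, 1.29 and 1.38 to 1.54, 1.64 and 1.56. On the log2 scale the shifts were 1.18 for SYK over TNFRSF13C, 0.78 for LYN over TNFRSF13C, 0.69 for SYK over BLNK, 0.49 for BLNK over TNFRSF13C, 0.40 for SYK over LYN and 0.29 for LYN over BLNK. For each of the 6 ratios the two-sided exact permutation test gave p = 0.1, and 0.1 after adjustment over the 6, the smallest p that 3 libraries against 3 allow.

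**Figure D3:**
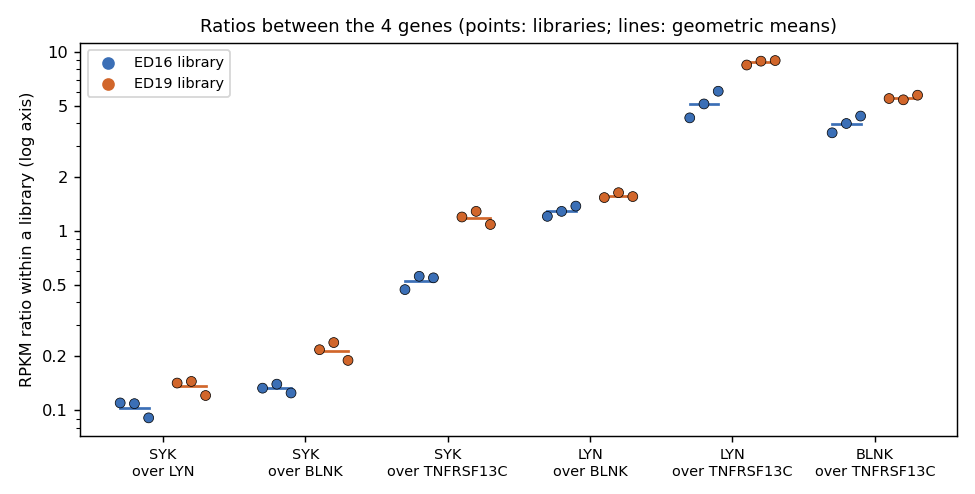
Ratio of the RPKM of 2 members within a library, on a log axis, for the 6 pairs, with ED16 libraries in blue, ED19 libraries in orange and lines at the geometric means. Every ratio is higher in all ED19 libraries than in all ED16 libraries; SYK over TNFRSF13C moves from below 1 to above 1.

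The shifts of these ratios changed with a correction for gene length, which scaling by library does not include. By the authors' lengths SYK spans 4492 bases, LYN 2985, BLNK 2168 and TNFRSF13C 744, and 10.9% of the tested genes are shorter than TNFRSF13C. Tested genes within 20% of its length had a median log2 fold change of -0.79, whereas those near SYK had 0.45, those near LYN 0.32 and those near BLNK 0.08. Among genes of like length, 10.1% had a larger log2 fold change than TNFRSF13C, 10.4% a larger one than BLNK, 8.73% than LYN and 4.77% than SYK. With the correction for gene length, an alternative chosen for the ratios after the data were seen, the difference of SYK from TNFRSF13C shrank to 0.13, and those of LYN and BLNK from TNFRSF13C turned to -0.20 and -0.26. With that correction the log2 fold changes were 1.98 for SYK, 1.85 for TNFRSF13C, 1.66 for LYN and 1.60 for BLNK, so that each gene was again higher at ED19. The study's methods give a lower mean RNA integrity score at ED16 than at ED19. The study also reports a higher GC content of the reads and a smaller share of mapped reads in every ED16 library than in every ED19 library. The part of RNA integrity, GC content and mapping in these differences was not tested.

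ED19_6 was the lowest ED19 library for each of the 4 genes, by 23.6% to 36.6% of the RPKM mean of the other ED19 libraries. The median over all called genes that were higher at ED19 was an RPKM in ED19_6 of 0.733 times that mean, and the members lay at 0.634 for SYK, 0.726 for TNFRSF13C, 0.749 for LYN and 0.764 for BLNK. Of the 45 listed signaling genes higher at ED19, 42 were lowest by RPKM in ED19_6 among the ED19 libraries. The matching share of all called genes higher at ED19 was not counted, so nothing particular to the list is read from this. Without ED19_6 the log2 fold changes were 2.17 for SYK, 1.68 for LYN, 1.38 for BLNK and 0.92 for TNFRSF13C. The direction of the 4 genes did not depend on that library.

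**Figure D4:**
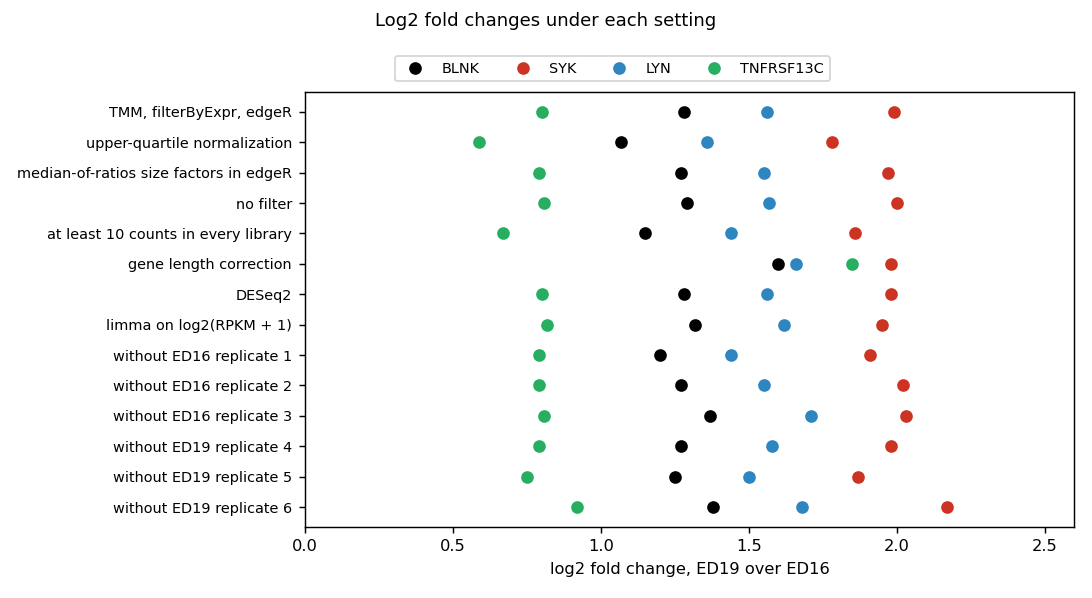
Log2 fold change (ED19 over ED16) of the 4 genes with the settings used here (top row) and under 13 alternatives. The points keep the order TNFRSF13C, BLNK, LYN, SYK from left to right except with the correction for gene length, where TNFRSF13C moves from 0.80 to 1.85.

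The wider signaling list held 125 genes in 9 roles, of which 65 had a symbol and were tested. The direction of the other 60 is not known here. The list was chosen with earlier results of these data known, so its shares are a description and not independent support. Since only called genes have symbols, what the list can show is direction: 45 were higher at ED19 and 20 at ED16. Of the called genes, 69.2% of this list were higher at ED19, and 67.2% without the 4 members, against 47.9% of all tested genes with a symbol. With the correction for gene length these shares were 70.3%, 68.3% and 53.6%, with 45 genes of the list higher at ED19 and 19 at ED16. The median log2 fold change of the list was 0.89, with or without the members, and that of all tested genes with a symbol was -0.76. With the correction for gene length these medians were 1.16 for the list, 1.04 without the members and 0.03 for all tested genes with a symbol. When single libraries were left out, 39 to 45 of the listed genes were called higher at ED19 and 19 or 20 higher at ED16.

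Among the 10 receptor chains and coreceptors listed, the 2 with a symbol were higher at ED19. CD38, a surface enzyme of lymphocytes, rose from an RPKM of 14.7, 17.0 and 15.8 to 155, 143 and 110 (log2 fold change 3.05, SE 0.15, edgeR adjusted p = 2.3e-05), the largest rise of the list. PTPRC (CD45), the phosphatase that keeps LYN ready to act, rose from an RPKM of 47.8 ± 7.71 (SD, n = 3) to 176 ± 75.5 (log2 fold change 1.80, edgeR adjusted p = 0.00083). The receptor's own chains CD79A and CD79B carried no symbol and were not analysed here.

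Of the 21 lipid enzymes and GTPase regulators listed, 15 had a symbol. Of these, 12 were higher at ED19, where 47.6% of all tested genes with a symbol were called higher. PIK3R1, the regulatory subunit of phosphoinositide 3-kinase, rose from an RPKM of 8.36 ± 2.38 (SD, n = 3) to 47.8 ± 5.79 (log2 fold change 2.46, edgeR adjusted p = 8.0e-05), and its catalytic partners PIK3CA, PIK3CB and PIK3CD rose with log2 fold changes of 2.04, 1.26 and 1.26. VAV3, an exchange factor for Rac, rose (log2 fold change 2.20), while its relative VAV1 was higher at ED16 (log2 fold change -2.59, edgeR adjusted p = 0.00017). PRKCQ, the protein kinase C of T-cell receptor signaling, was higher at ED16 as well, with 864, 1258 and 462 counts there and 84, 41 and 12 at ED19 (log2 fold change -4.26), while PRKCB, its counterpart in B-cells, rose (log2 fold change 0.64, edgeR adjusted p = 0.0066).

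In the calcium branch 8 of the 14 genes listed had a symbol. Of these, 7 were higher at ED19, though not all of them without overlap between the stages. The 3 receptors that release calcium from the endoplasmic reticulum, ITPR1, ITPR2 and ITPR3, had log2 fold changes of 1.26, 1.64 and 1.19. In ED19_6 they measured 8.86, 14.5 and 7.4 RPKM. These values lay nearer to the highest ED16 libraries (7.64, 10.2 and 5.91 RPKM) than to the other ED19 libraries. STIM1, the sensor that opens the store-operated channel, was lower at ED19 (log2 fold change -0.97, edgeR adjusted p = 0.00044), and its relative STIM2 was higher (log2 fold change 0.90, edgeR adjusted p = 0.0027). In the canonical NF-kB branch BCL10 and MALT1, which act together downstream of protein kinase C, rose with log2 fold changes of 1.14 and 1.33. NFKBIE, an inhibitor of NF-kB, was lower at ED19, with 43.6 ± 6.32 (SD, n = 3) RPKM at ED16 and 10.5 ± 0.895 RPKM at ED19 (log2 fold change -2.09, edgeR adjusted p = 5.9e-05).

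The inhibitory regulators were split between the stages, with 6 higher at ED19 of the 11 with a symbol, out of 20 listed. PAG1, which anchors the inhibitory kinase CSK at the membrane, measured 13.2, 14.4 and 16.0 RPKM at ED16 and 137, 155 and 25.2 RPKM at ED19, so that its log2 fold change of 2.76 (SE 0.53, edgeR adjusted p = 0.0018) came mostly from ED19_4 and ED19_5. INPP5D (SHIP1), the phosphatase of inhibitory receptors, had a log2 fold change of 0.65 (edgeR adjusted p = 0.018), but leaving out any library other than ED19_6 brought its adjusted p to between 0.053 and 0.064, and leaving out ED19_6 to 2.3e-05 (edgeR). DOK3, an adaptor that dampens B-cell receptor signals, was lower at ED19, with 96.5 ± 13.3 RPKM at ED16 and 40.6 ± 3.42 RPKM at ED19 (log2 fold change -1.29, edgeR adjusted p = 0.00046). CD5, a receptor of T-cells and some B-cells, and UBASH3A, a T-cell regulator, were also higher at ED16, with log2 fold changes of -1.43 and -4.22.

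**Figure D5:**
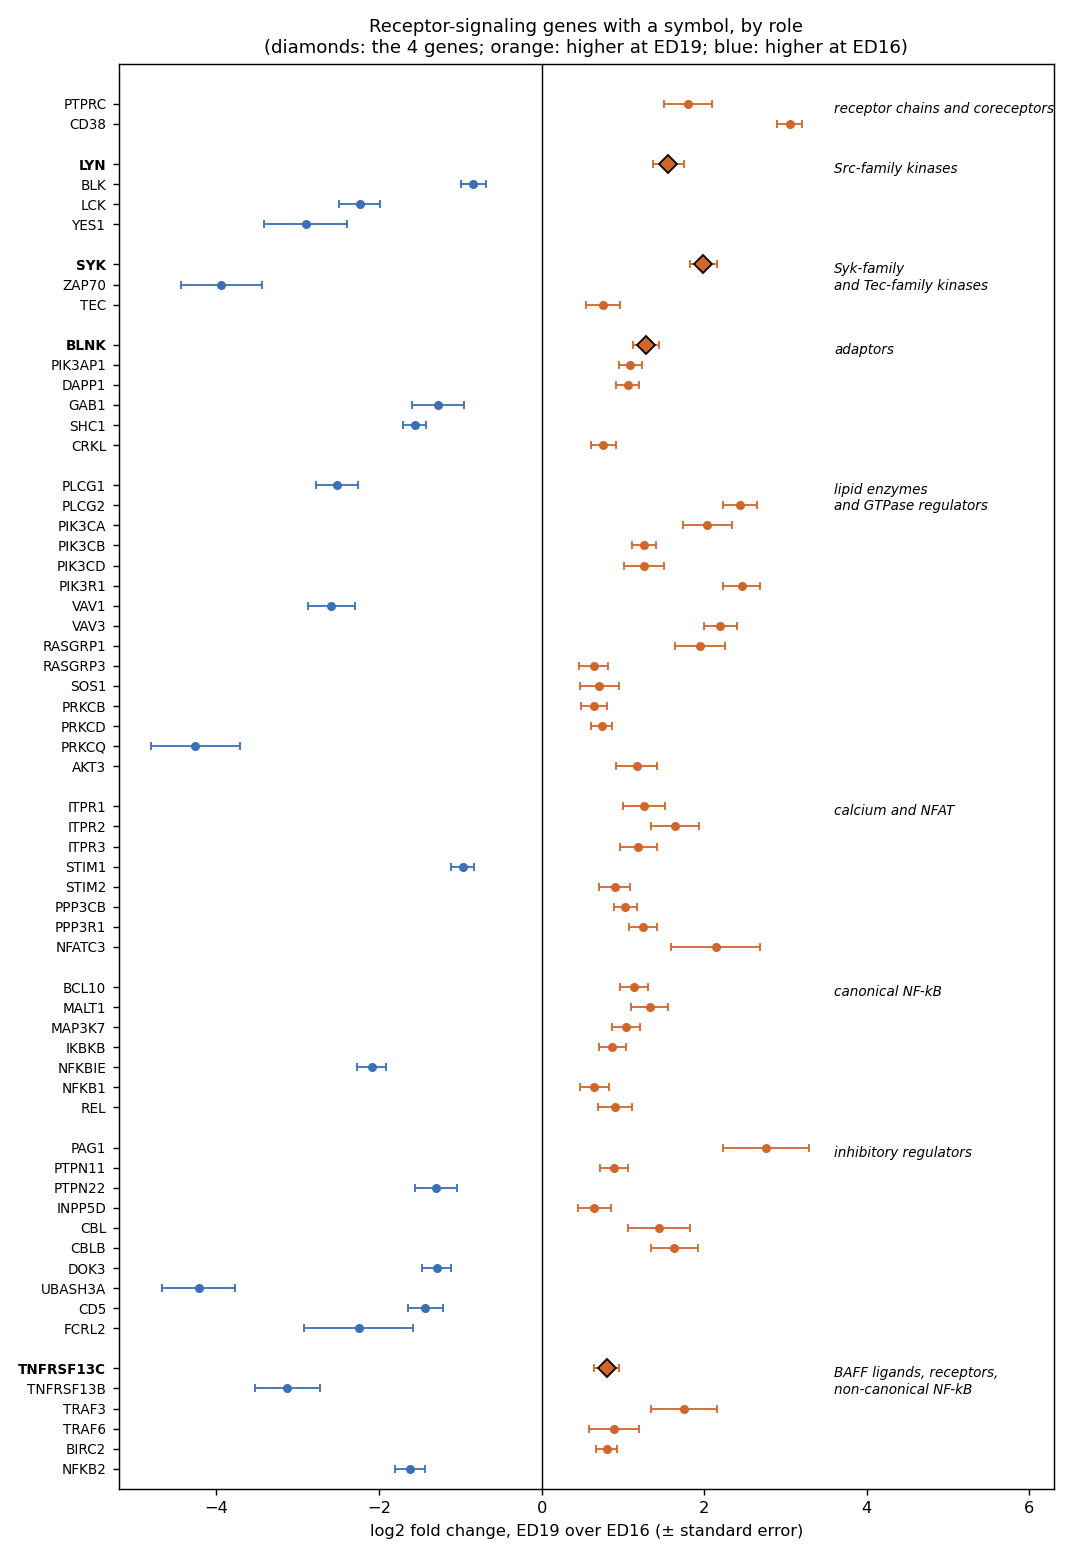
Log2 fold change (ED19 over ED16) with its SE for 61 of the 65 listed genes with a symbol, grouped by role, with the 4 members as diamonds. Genes to the right of 0 (orange, 43 genes) were higher at ED19 and genes to the left (blue, 18 genes) at ED16; all come from a table that lists only called genes.

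Markers of other cells moved with the stage. Of the 16 B-cell markers listed, 4 had an identifier, and all were detected in each library. IRF8, a transcription factor of B-cells and myeloid cells, had a log2 fold change of 0.77, RAG2, expressed in developing chicken B-cells, 0.92 and BACH2, a repressor in B-cells, 2.30, with edgeR adjusted p of 0.0013, 0.0016 and 0.0024. CXCR5, a chemokine receptor of B-cells, was found by its Ensembl identifier, since it has no symbol in these files. It had a log2 fold change of 0.46 and did not pass (edgeR adjusted p = 0.090), but passed without ED19_6 (0.73, edgeR adjusted p = 9.0e-05). CXCR5 also passed with the correction for gene length (1.25, edgeR adjusted p = 0.0012). The summed RPKM of the 4 markers ran from 215 to 235 at ED16 and from 271 to 436 at ED19.

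The ratios of the members to these markers differed by marker. The ratio of SYK to RAG2 ran from 1.02 to 1.14 at ED16 and from 2.11 to 2.37 at ED19, that of LYN to RAG2 from 10.3 to 11.2 and from 16.2 to 17.4, and that of BLNK to RAG2 from 8.02 to 8.56 and from 9.84 to 11.1. None of these overlapped between the stages, nor did those of SYK, LYN and BLNK to IRF8, and all were higher at ED19. The ratio of TNFRSF13C to RAG2 overlapped, at 1.85 to 2.42 at ED16 and 1.82 to 1.97 at ED19, and so did its ratio to IRF8, at 0.388 to 0.416 and 0.323 to 0.467. The log2 fold change of TNFRSF13C differed from that of RAG2 by -0.12 and from that of IRF8 by 0.03. With the correction for gene length, an alternative added after the data were seen, these differences were 0.54 and 0.58. Those of SYK went from 1.07 and 1.22 to 0.67 and 0.71. Those of LYN went from 0.65 and 0.80 to 0.35 and 0.38, and those of BLNK from 0.36 and 0.51 to 0.29 and 0.33. With the correction LYN and BLNK thus exceeded these markers by less than TNFRSF13C did. BACH2 had a larger log2 fold change than each of the 4 genes, with and without that correction. Its level in ED19_6 was far below the other ED19 libraries, at 9.74 RPKM against 42.7 and 47.5, and the ratio of each member to BACH2 overlapped between the stages, that of SYK at 2.20 to 2.46 at ED16 and at 1.55, 1.53 and 4.51 at ED19.

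Of 51 tested markers of 8 other cell types, 49 were higher at ED16, with a median log2 fold change of -4.14 over the 51. Of all tested genes with a symbol, 51.8% were called higher at ED16. Only listed markers with a symbol, and so called by the authors, could be counted. These were 8 of 13 listed for T-cells, 8 of 16 for myeloid cells and 5 of 16 for erythroid cells. All 8 T-cell markers were higher at ED16, and their summed RPKM ran from 287 to 374 at ED16 and from 135 to 227 at ED19. Most of that sum was CD3D, a chain of the T-cell receptor complex, at 229, 254 and 219 RPKM at ED16 and 126, 115 and 205 RPKM at ED19, which passed narrowly (log2 fold change -0.67, edgeR adjusted p = 0.049), while the other 7 had log2 fold changes of -1.43 to -5.34. LCK, ZAP70, PRKCQ and UBASH3A among the signaling genes were higher at ED16 like this list, which also holds CD5, and none of its 8 markers was without counts at ED19. Of 8 myeloid markers, which bear on SYK and LYN because myeloid cells express these kinases too, 7 were higher at ED16, and only SPI1, also a B-cell gene, was higher at ED19. The summed RPKM of the myeloid list ran from 198 to 219 at ED16 and from 284 to 290 at ED19, most of it from SPI1. All 5 erythroid and all 8 epithelial markers were higher at ED16, with summed RPKM of 1780 to 2390 and 132 to 294 there and 65.1 to 116 and 4.75 to 6.01 at ED19. All tested markers of thrombocytes (4), fibroblasts (7) and kidney (6) and 4 of 5 of endothelium were higher at ED16 as well, and GP9, PDGFRB, KDR, VWF and AGXT had no counts at ED19. Of these, AGXT was counted 2615, 809 and 652 times at ED16. GP9, PDGFRB, KDR and VWF were low at ED16 too, with 4 to 29 counts per library, and GP9, PDGFRB and KDR were not among the tested genes. The part of these other cells in the changes of the 4 genes was not tested.

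The genes whose course over the 6 libraries was most like that of a member were different for each. Likeness was measured as the root mean square difference of log2 CPM, each gene centred on its own mean, among 3952 other genes with a symbol whose mean log2 CPM was 3 or more. For LYN the nearest were ICE2 (0.022), CUL4A (0.042), IBTK (0.045), PRKX (0.053) and AEBP2 (0.054). For SYK they included MAN1A1 (0.031), TMOD3 (0.058), INO80 (0.059) and HIF1A (0.068). For BLNK they were DCLRE1A (0.025), INTS2 (0.032), PHF6 (0.032), TOP2B (0.033) and SMARCA1 (0.035), and for TNFRSF13C they were ZFYVE1 (0.018), HSPA4L (0.032), EPRS (0.037), KIF23 (0.039) and FKBP15 (0.047). No member was among the nearest of another. This distance depends largely on the size of the change between stages, and the members' log2 fold changes ran from 0.80 to 1.99. Their distances therefore mostly restate those changes, and nothing further is read from them. LYN and BLNK were closest, at 0.16, with BLNK in place 178 for LYN, and SYK and TNFRSF13C were farthest apart, at 0.60. These distances were not corrected for gene length. With that correction the log2 fold changes of SYK and TNFRSF13C differed by only 0.13, and those of SYK and BLNK by 0.39.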

How the data were processed

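RNA of gradient-purified bursal lymphocytes was sequenced in 6 libraries. The authors aligned clean paired-end reads to galGal4 with TopHat and deposited raw counts per gene made with HTSeq, along with RPKM, checked here to be the count over gene length and library total. The submitters' processing notes name TopHat2 2.0.12. The sources used here give no strand setting, so reads of overlapping antisense genes cannot be told apart. The table of called genes, used here for symbols only, also holds the authors' deposited signal (mean scaled count) per stage, log2 fold change and p-values. The RefSeq gene table matched 0 of the identifiers, and gene positions and sequences were not used here.

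Counts (27087661 to 34614652 per library) entered edgeR 4.0.16 (R 4.3.3) after filterByExpr and TMM, with a threshold of 0.05. A standard error is the log2 fold change over the square root of F. Ratios were tested with two-sided exact permutation tests in scipy 1.17.1. Named genes were the members, their direct partners, related genes with a symbol, and per role and direction the called gene of largest change with stages apart and mean log2 CPM at or above 3; others were named after their values were seen, and some genes are not reported here. The members and lists were chosen with earlier results of these data known. Alternatives were other scalings and filters (none, or 10 counts as a minimum in each library), gene length corrected by loess (span 0.5), DESeq2 1.42.0, limma 3.58.1 on log2(RPKM + 1), a minimum fold of 2, a threshold of 0.01, RPKM + 1 for ratios, RPKM scaled by TMM, and leaving out each library.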

Additional observations from a re-analysis of the deposited data

How the results depend on the processing

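Each of the 4 genes stayed higher at ED19 with an adjusted p below 0.05 under all 13 refits, with adjusted p up to 0.0025 for BLNK, 0.00088 for SYK, 0.0024 for LYN and 0.011 for TNFRSF13C (edgeR, DESeq2 or limma). With each library left out the log2 fold changes were 1.20 to 1.38 for BLNK, 1.87 to 2.17 for SYK, 1.44 to 1.71 for LYN and 0.75 to 0.92 for TNFRSF13C. A minimum fold of 2 removed TNFRSF13C (0.80) and moved the number of genes called higher at ED19 from 4287 to 2502. With the length correction the changes of LYN over TNFRSF13C and BLNK over TNFRSF13C reversed, to -0.20 and -0.26, and TNFRSF13C less RAG2 moved from -0.12 to 0.54; the cause was not tested. Over all tested genes the median change was -0.05, and -0.26 with upper-quartile normalization, where the members kept their distance from it (0.85 for TNFRSF13C to 2.04 for SYK). With the length correction it was 0.38, and the distances were 1.22 for BLNK, 1.61 for SYK, 1.28 for LYN and 1.48 for TNFRSF13C. The direction of no listed signaling gene changed with scaling or length. No paired analysis was possible because the stages share no replicate number. Symbols came from 1 source, so the alternative source gave no other list. A correction for GC content was not run.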

Other observations

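Besides SPI1, 1 other marker of non-B cells was higher at ED19. SPI1, a transcription factor that myeloid cells and B-cells share, measured 143 ± 2.39 (SD, n = 3) RPKM at ED16 and 271 ± 1.58 RPKM at ED19 (log2 fold change 0.88, SE 0.14, edgeR adjusted p = 0.00071). By RPKM its ED19 libraries lay close together, at 272, 270 and 270, whereas each of the 4 receptor genes was lowest in ED19_6. In TMM-normalized CPM SPI1 was highest in ED19_6, at 431 against 370 and 377, while the 4 genes were still lowest there. PECAM1, an adhesion molecule of endothelium, platelets and leukocytes, was counted 186, 177 and 106 times in the ED16 libraries and 945, 574 and 221 times in those of ED19 (log2 fold change 1.87, edgeR adjusted p = 0.0029), whereas the other 4 tested endothelial markers were higher at ED16.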
